A study of Mus musculus with 12 samples.

Results

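Liver transcripts were compared between male mice that lacked the nuclear receptor PPARβ/δ (encoded by Ppard) and wild-type males, all of C57BL/6 background and all fed a liquid control diet without ethanol. The comparison sets 3 arrays of the null control group against 3 of the wild-type control group, while the spread behind each p-value was estimated from all 12 arrays of the series. The animals were 8 to 10 weeks old, were kept on the control liquid diet for 1 week of acclimation and then stayed on it for 16 weeks. The other 6 arrays, 3 per genotype, come from mice given the liquid diet with 4% (v/v) ethanol for the same 16 weeks, and serve here as a second pair of genotype groups. The feeding study had 10 mice per group according to the labels, which do not tie an array to 1 animal, so the p-values cover only the spread among these samples, and that spread may be technical. The labels do not describe how the Ppard allele was disrupted or whether the wild-type mice were littermates, so effects of the receptor's loss and of DNA linked to the allele or differing between the colonies cannot be told apart.

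PPARβ/δ is a ligand-activated receptor that binds DNA together with RXR and is activated by fatty acids. It is present in nearly all cell types of the liver, including hepatocytes, Kupffer cells (the resident macrophages) and stellate cells. It is known for roles in fatty acid oxidation, in glucose handling and in restraining or shaping inflammatory gene expression in macrophages.

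Transcripts were read on Affymetrix Mouse Gene 2.0 ST arrays, whose probes are spread along each transcript, and values are log2 of the deposited RMA-normalised intensities. Median log2 intensity over all probe sets lay between 5.55 and 5.62 on the 12 arrays. Precision is limited by there being 3 arrays a group. The liver label held: the 17 hepatocyte markers measured had a mean log2 intensity between 12.62 and 12.81 on each array. Differences are null minus wild-type on the log2 scale with their standard errors, and adjusted p-values are from limma with Benjamini-Hochberg adjustment over all 14031 genes tested. A gene is called changed where that adjusted p was under 0.05.

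Ppard itself did not mark the genotype. Its log2 intensity was 7.64, 8.01 and 7.68 on the wild-type control arrays and 7.69, 7.90 and 7.91 on the null control arrays, so the groups overlapped (difference 0.06 ± 0.11, limma adjusted p = 0.8, 95% confidence interval -0.18 to 0.30). A second probe set that also names 1810013A23Rik read 5.79, 5.56 and 6.47 against 6.05, 6.01 and 5.97. The position of these probes with respect to the altered stretch of the gene is unknown here, so Ppard cannot serve as a check of genotype labels.

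Of the 14031 genes, 715 were called between the genotypes on control diet, which is 5.1%. Of these, 450 were higher in the null arrays (3.21% of genes tested) and 265 were lower (1.89%), while the median difference over all genes was 0.01. In 711 of the 715 the 3 null arrays did not overlap the 3 wild-type arrays. Non-overlap thus accompanied nearly every call, and where stated below for a called gene it adds little to the call. Its share among all genes tested is not given here. Fitting only the 6 control-diet arrays gave 226 calls (135 higher, 91 lower), and weighting the arrays gave 1631. A difference of at least 1 (2-fold) was reached by 85 of the higher and 51 of the lower genes. The count of 715 depended on single arrays: leaving out wild-type control 1, 2 or 3 in turn gave 318, 1306 or 312 genes and leaving out null control 2 gave 193, and the lower genes alone were 155 without null control 3. Of the 112 called genes covered by the naming rule, the call was lost by 39, 11 and 48 when wild-type control 1, 2 and 3 were left out in turn and by 27, 60 and 37 when null control 1, 2 and 3 were, and none changed direction. Normalising the arrays to each other again by quantiles gave 353 higher and 346 lower genes in place of 450 and 265, so the balance of directions depends on scaling.

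**Figure D1:**
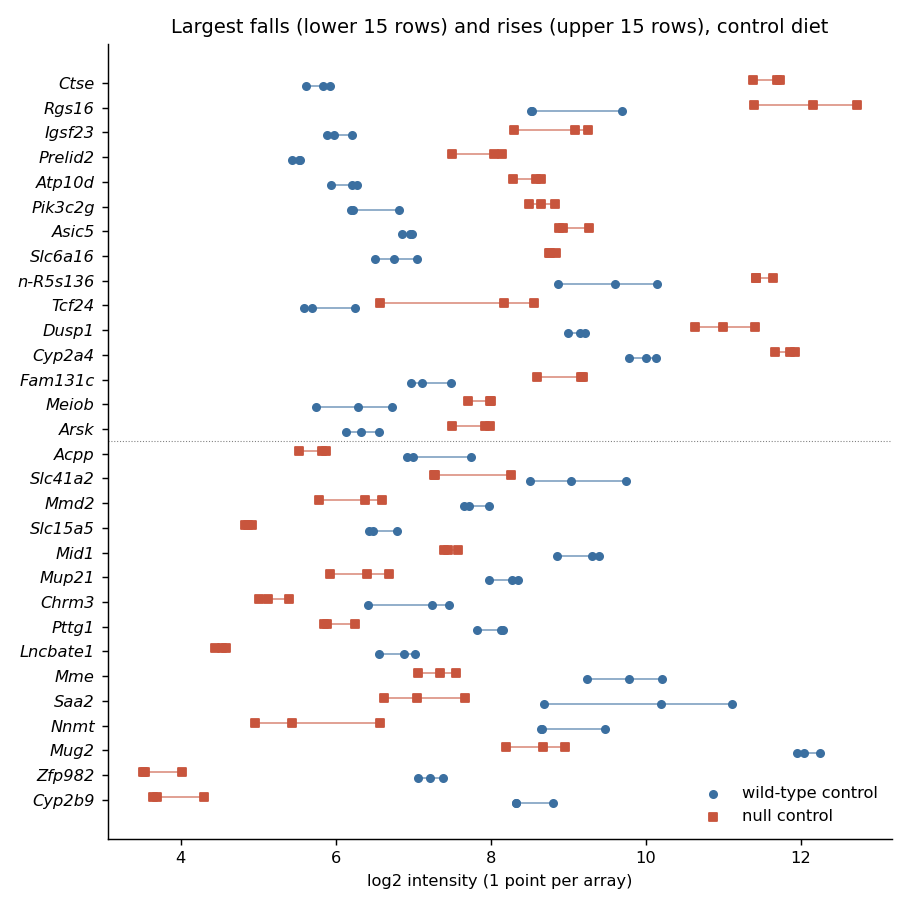
Log2 intensity of the 15 genes with the largest rise and the 15 with the largest fall among called genes, chosen by size of the difference, with 1 point for each of the 3 wild-type control arrays (blue circles) and 3 null control arrays (red squares) and a line over each group's range. Clone, predicted, snoRNA and receptor-family names were left out, as were genes with overlapping groups. The groups thus do not overlap for any of the 30 genes. The genes run from Ctse at 5.61 to 5.92 against 11.38 to 11.73 down to Cyp2b9 at 8.33 to 8.80 against 3.64 to 4.31.

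Among hydrolytic enzymes both rises and falls were found. Ctse (cathepsin E, an aspartic protease of endosomes) read 5.92, 5.83 and 5.61 in the wild-type arrays, near the level below which a gene was not tested (5.61 to 5.72), and 11.38, 11.70 and 11.73 in the null arrays. All null arrays were thus high and all wild-type arrays dim, a 56.3-fold rise (5.81 ± 0.16, limma adjusted p = 2.5e-10), and the wild-type level near background limits how closely that fold can be known. Mme, which encodes the membrane metallopeptidase neprilysin, read 10.22, 9.79 and 9.24 against 7.07, 7.35 and 7.55 and fell by 2.43 ± 0.22 (limma adjusted p = 4.27e-05). Acpp, a prostatic-type acid phosphatase, fell by 1.48 ± 0.20 (adjusted p = 0.00114), and Arsk, a lysosomal sulfatase, rose by 1.47 ± 0.14 (adjusted p = 7.92e-05). Of the 20 cathepsin and lysosomal genes tested, Ctse rose and Ctss, Ctsc and Ctso fell, and the list's median difference was -0.02. Called higher were thus 5% and lower 15%, against 3.21% and 1.89% of all genes. Ctss and Ctsc are also members of the macrophage list described further on and are counted there again.

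Signalling genes made up another set of large differences. Rgs16, a regulator that shortens G protein signals and is known as a fasting- and clock-responsive liver gene, read 8.53, 9.69 and 8.52 in wild-type and 12.72, 12.15 and 11.40 in null arrays. It was thus higher in each null array than in each wild-type array, by 3.18 ± 0.34 or 9.04-fold (limma adjusted p = 0.000189). Pik3c2g, a class II phosphoinositide kinase found mainly in liver, rose 4.74-fold (2.24 ± 0.17, adjusted p = 7.37e-06). Chrm3, the muscarinic M3 acetylcholine receptor, fell by 1.86 ± 0.24 (adjusted p = 0.000867), from 7.25, 6.42 and 7.46 to 5.01, 5.12 and 5.40, values under the testing level that limit the size of the fall. Igfbp3, which carries insulin-like growth factors in plasma, rose 2.48-fold and Mtor, the kinase of the growth-controlling TOR complexes, 1.79-fold (limma adjusted p = 0.00045 and 0.00306). These with Pik3c2g were the 3 of 25 insulin and growth factor genes called, all higher (12% against 3.21% of all genes).

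Cytochromes P450 and other enzymes that handle foreign compounds moved in both directions. Cyp2b9, a P450 that in mice is usually expressed more in female than in male liver, read 8.33, 8.33 and 8.80 in the wild-type males and 3.64, 4.31 and 3.70 in the null males. The null values lay under the testing level, so the difference of -4.60 ± 0.29 (limma adjusted p = 1.28e-06) is limited by background on that side. Cyp2a4, a steroid hydroxylase that is also female-biased, moved the other way, from 9.79, 10.13 and 10.00 to 11.93, 11.67 and 11.87 (3.6-fold, adjusted p = 0.00722), and probes for it may also read its close relatives. Nnmt, which methylates nicotinamide, read 8.66, 8.65 and 9.47 against 6.57, 4.96 and 5.44 and fell by 3.27 ± 0.36 (adjusted p = 0.000257). Of 33 conjugation enzymes tested, Nnmt fell and Tpmt, Gstm1 and Sult1c2, a thiopurine methyltransferase, a glutathione transferase and a sulfotransferase, rose by 0.93, 0.45 and 0.82 (limma adjusted p = 0.00214, 0.0173 and 0.0212). The list thus had 9.09% called higher and 3.03% lower, against 3.21% and 1.89% of all genes. Cyp2b10, the usual marker of the receptor CAR, lay near the testing level in both genotypes with overlapping groups (0.03 ± 0.43, 95% confidence interval -0.90 to 0.96).

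Male-biased genes lay mostly below 0, with 16 of 22 differences negative on control diet and 17 of 22 on ethanol diet. Their mean log2 level was 10.80 to 10.91 on the wild-type control arrays and 10.499 to 10.64 on the null control arrays, without overlap. The share of all lists without such overlap is not given here. Among 15 female-biased genes tested, 9 differences were positive and 6 negative, and Cyp2a4 and the peroxisomal transporter Abcd2 rose and Cyp2b9 fell. Called higher were thus 13.3% and lower 6.67%, against 3.21% and 1.89% of all genes. Of the male-biased genes, Mup21, a major urinary protein, fell by 1.86 ± 0.22 (limma adjusted p = 0.00045), Cyp4a12b fell by 1.29 ± 0.33 (adjusted p = 0.0453) and Cyp4a12a rose by 0.69 ± 0.18 (adjusted p = 0.0471). Among these 22 genes, 4.5% were thus called higher and 9.09% lower, against 3.21% and 1.89% of all genes. Cyp4a12a and Cyp4a12b are near-identical copies whose probes may not separate them, and the calls of both and of Abcd2 ended without wild-type control 3, null control 1, 2 or 3 or wild-type ethanol 1 or 3, each left out singly, and in further settings. The list medians were -0.20 for the male-biased and 0.11 for the female-biased genes.

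Several plasma proteins fell. Mug2, a murinoglobulin and thus a plasma protease inhibitor, read 11.95, 12.25 and 12.04 in wild-type and 8.96, 8.19 and 8.68 in null arrays, an 11.1-fold fall (-3.47 ± 0.19, limma adjusted p = 3.72e-07), although murinoglobulin genes are similar enough that probes may read more than 1 of them. Saa2, an acute phase serum amyloid A protein, had widely spread wild-type arrays at 8.68, 10.19 and 11.11 against 7.66, 6.62 and 7.04 (-2.89 ± 0.59, adjusted p = 0.0167), and its call ended without wild-type control 3 (adjusted p = 0.0612) or null control 2 (adjusted p = 0.0814). Its neighbour Saa4 fell by 1.24 ± 0.25. These were the 2 of 25 acute phase genes called, and C9, a component of the membrane attack complex, and Pros1, the anticoagulant protein S, were the 2 of 32 complement and coagulation genes called (differences of -0.58 ± 0.09 and -0.65 ± 0.11). That is 8% and 6.25% of these lists called lower, against 1.89% of all genes. The list medians were -0.07, with 17 of 25 members negative, and -0.03, with 17 of 32 negative.

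Several membrane proteins and transporters rose strongly. Igsf23, an immunoglobulin superfamily protein, read 5.98, 6.22 and 5.89 in wild-type and 8.30, 9.09 and 9.26 in null arrays (7.23-fold, limma adjusted p = 0.00146). Atp10d, a lipid flippase, rose 5.12-fold, Asic5, a bile acid-sensitive ion channel, 4.27-fold, and Slc6a16, an orphan member of a transporter family, 4.05-fold, with wild-type arrays at or below 7.05 and null arrays at or above 8.29 for each of these 3 genes. Slc15a5, a member of a peptide transporter family, fell by 1.69 ± 0.14 to null values of 4.83 to 4.92, under the testing level, Mmd2, a multipass membrane protein, by 1.53 ± 0.18, and Slc41a2, a magnesium transporter, by 1.49 ± 0.33. The call of Slc41a2 ended without wild-type control 1 or 3 or without null control 1 or 2 (adjusted p = 0.0634 to 0.101).

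Other large differences concerned nuclear, mitochondrial and non-coding transcripts. Zfp982, a zinc finger protein, read 7.38, 7.06 and 7.21 against 4.02, 3.52 and 3.55 and fell by 3.52 ± 0.19 (limma adjusted p = 3.28e-07), with all null arrays under the testing level. Pttg1, the securin that guards chromosome separation, fell by 2.04 ± 0.19, Lncbate1, a long non-coding RNA known from brown fat, by 2.30 ± 0.15, and Mid1, a ubiquitin ligase of microtubules, by 1.71 ± 0.23, where the null arrays of Lncbate1 (4.44 to 4.58) lay under the testing level. Prelid2, a PRELI-domain protein, rose from 5.44, 5.52 and 5.54, under the testing level, to 8.04, 8.15 and 7.51. Background thus limits the size of both differences. Tcf24, a transcription factor, rose 3.8-fold, Fam131c 3.46-fold and Meiob, a meiotic recombination factor, 3.13-fold. The null arrays of Tcf24 were far apart, at 6.58, 8.56 and 8.17, and its call ended without any 1 of wild-type control 1, 2 or 3 or null control 2 or 3 (adjusted p = 0.0551 to 0.131). The 5S ribosomal RNA gene n-R5s136 rose 3.87-fold (adjusted p = 0.00204).

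Promoter sequences are shown for genes of these sets because they let the reader look at the letters beside the values: the receptor's classical element is a direct repeat of AGGTCA with a spacer of 1 base (AGGTCANAGGTCA), and ER chaperone genes, described further on, carry the endoplasmic reticulum stress element (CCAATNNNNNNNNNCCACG). RefSeq promoter windows of GRCm38.p6, which run from 250 bases before to 50 after a transcript's start, were searched on both strands. The repeat was in 0.0396% of 32851 windows, the plain AGGTCA in 16.3%, the stress element in 0.119%, and the cyclic AMP element TGACGTCA in 1.79%. Among the 30 genes of largest difference, 22 had a window, 1 held the repeat (Igsf23) and 6 held AGGTCA. Counted per gene in the same way, 0.0635% of the 11016 tested genes with a window held the repeat and 15.7% AGGTCA. Capitals mark the repeat in Igsf23 (chr7:19950694-19950993, minus strand, 1 of 2 starts listed, match beginning 72 bases before the start), AGGTCA in Cyp2b9 (chr7:26173159-26173458, plus strand) and TGACGTCA in Dusp1 (chr17:26508423-26508722, minus strand).
Igsf23: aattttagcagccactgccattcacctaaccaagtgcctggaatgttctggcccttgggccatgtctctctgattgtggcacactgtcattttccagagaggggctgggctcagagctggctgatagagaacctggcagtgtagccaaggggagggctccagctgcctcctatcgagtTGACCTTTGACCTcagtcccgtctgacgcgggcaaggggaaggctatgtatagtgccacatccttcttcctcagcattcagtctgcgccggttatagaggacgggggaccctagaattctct
Cyp2b9: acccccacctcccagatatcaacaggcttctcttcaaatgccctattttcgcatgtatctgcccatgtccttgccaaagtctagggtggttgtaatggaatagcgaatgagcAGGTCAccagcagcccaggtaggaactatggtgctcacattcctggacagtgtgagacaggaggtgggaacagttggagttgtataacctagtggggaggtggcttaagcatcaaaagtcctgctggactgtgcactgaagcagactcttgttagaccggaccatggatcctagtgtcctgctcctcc
Dusp1: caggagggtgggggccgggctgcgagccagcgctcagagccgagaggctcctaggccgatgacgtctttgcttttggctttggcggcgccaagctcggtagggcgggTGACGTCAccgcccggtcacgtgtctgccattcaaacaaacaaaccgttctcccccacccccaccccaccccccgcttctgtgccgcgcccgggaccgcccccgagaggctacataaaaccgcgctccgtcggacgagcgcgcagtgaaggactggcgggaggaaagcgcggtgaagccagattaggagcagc
In Igsf23 the repeat is read on the opposite strand, so its letters appear as the reverse complement. The other 6 tested genes with the repeat in a window, Apol7c, Bco1, Etohd2, Isca1, Srp54c and Wfdc15a, differed by -0.24 to 0.23 and none was called. A match is a description of these letters and not a measured binding site.

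Few known PPAR targets were called. Of 35 target genes tested, 3 were called, all higher: Fgf21, a fasting hormone of the liver, with 7.42, 7.43 and 7.81 against 8.19, 8.88 and 9.10 (2.26-fold, limma adjusted p = 0.0244), Acot2, a mitochondrial acyl-CoA thioesterase (2.06-fold, adjusted p = 0.0184), and Creb3l3, a liver transcription factor of fasting (1.26-fold, adjusted p = 0.0439). That is 8.57% of the list against 3.21% of all genes, with a list median of 0.07 and 23 of 35 differences positive. On ethanol diet 22 of the 35 were negative and the median was -0.05. There 1 target was called higher and 2 lower, where 0.456% and 1.33% of all genes were. Fgf21, Acot2 and Creb3l3 differed by 1.13, -0.08 and 0.02 on that diet. No target was called when null control 2 or 3 was left out (0 genes), and 1 when wild-type control 3 was. Among the genes usually read as PPARβ/δ responses and chosen for mention after their values were seen, Pdk4, which restrains glucose oxidation, differed by 0.00 ± 0.30, the lipid droplet protein Plin2 by -0.05 ± 0.18 and Angptl4, an inhibitor of lipoprotein lipase, by 0.43 ± 0.22, with overlapping groups. The related receptors Ppara and Pparg differed by 0.11 ± 0.10 and 0.03 ± 0.17. In a list of 33 nuclear receptors and coregulators, Rara, Esrrg and Ppargc1b rose by 0.37 ± 0.09, 0.54 ± 0.09 and 0.61 ± 0.15 (limma adjusted p = 0.0377, 0.00722 and 0.0349), and none fell. Called higher were thus 9.09% of that list, against 3.21% of all genes.

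Genes that turn sugar into fat were higher in the null arrays. Of 30 genes of lipogenesis and triglyceride synthesis, 5 rose and none fell (16.7% against 3.21% of all genes), 26 of 30 differences were positive, and the list median was 0.15. Fasn, the fatty acid synthase, read 9.67, 9.66 and 10.29 in wild-type and 11.32, 11.20 and 10.68 in null arrays (2.28-fold, limma adjusted p = 0.0122). Srebf1, the transcription factor that drives this pathway after feeding, read 8.61, 8.41 and 8.09 against 9.92, 9.48 and 9.19 (2.24-fold, adjusted p = 0.0247). For both genes each null array was above each wild-type array, and the same held for Tkfc (triokinase, 1.76-fold), Acly (ATP citrate lyase, 1.4-fold) and Gpam (the mitochondrial acyltransferase that starts triglyceride synthesis, 1.34-fold). The call of Fasn ended without wild-type control 1 or null control 2 and that of Srebf1 without wild-type control 3 or null control 1 or 2. Thrsp, a lipogenic nuclear protein chosen after its value was seen, differed by 1.23 with overlapping groups and did not pass (limma adjusted p = 0.209).

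Genes that release glucose and genes that break it down, taken as a single list of sugar genes, lay on the same side. Of 23 genes of glucose output and glycolysis, 3 rose and none fell (13% against 3.21%), 20 of 23 differences were positive and the median was 0.34. Pklr, the liver pyruvate kinase, read 10.50, 10.16 and 10.38 against 11.42, 11.27 and 11.03 (1.85-fold, limma adjusted p = 0.0201). Khk, the fructokinase, rose 1.43-fold (adjusted p = 0.0113) and Ppp1r3g, a glycogen-targeting phosphatase subunit induced by feeding, 1.86-fold (adjusted p = 0.0199). The counts of both lists moved with single arrays: lipogenic genes called higher were 3 without wild-type control 1 or 2, 2 without wild-type control 3 or null control 1 and 1 without null control 2, and sugar genes called higher were 1 without wild-type control 3, 0 without null control 2 and 5 without null ethanol 3. Cholesterol synthesis genes, with 17 of 19 positive and a median of 0.27, had none called. Their mean log2 level was 8.98, 8.95 and 9.42 on the wild-type control arrays and 9.53, 9.71 and 8.92 on the null control arrays. The groups thus overlapped, and null control 3 lay below each wild-type control array. Fatty acid oxidation and ketogenesis had 1 of 27 called, Acads, the short-chain acyl-CoA dehydrogenase (0.54 ± 0.10, adjusted p = 0.0109).

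Chaperones of the endoplasmic reticulum were lower. Of 24 genes of this list, 4 fell and none rose (16.7% against 1.89% of all genes called lower), 22 of 24 differences were negative and the median was -0.24. Hspa5, the master chaperone BiP, read 10.42, 10.27 and 10.55 in wild-type and 9.95, 9.67 and 10.01 in null arrays (-0.54 ± 0.11, limma adjusted p = 0.0184). Dnajb9, a cochaperone of BiP, fell by 0.66 ± 0.13 (adjusted p = 0.0132), Hsp90b1 (GRP94) by 0.45 ± 0.10 (adjusted p = 0.0205) and Pdia3, a protein disulfide isomerase, by 0.37 ± 0.10 (adjusted p = 0.0425). Groups did not overlap for these 4 genes, yet leaving out wild-type control 3 or null control 2 left 0 of them, leaving out null control 3 left 2, and leaving out wild-type control 2 gave 7. The 13 heat shock genes tested were all negative, with a median of -0.21, but Hspa4l was the only one called (-0.51 ± 0.10, adjusted p = 0.016). The ATF4 stress list lay mostly above 0, with 17 of 21 differences positive and a median of 0.24. In it Ddit3, the stress factor CHOP, fell (-0.44 ± 0.12, limma adjusted p = 0.0477), while Fgf21 and Ppp1r15a rose. Called higher were thus 9.52% and lower 4.76%, against 3.21% and 1.89% of all genes.

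The stress element was found in the promoter windows of 9 of the 21 chaperone-list genes with a window (42.9%, against 0.137% of 27025 genes). Capitals mark it in the genes for BiP (chr2:34771840-34772139, plus strand) and GRP94 (chr10:86705395-86705694, minus strand), where it occurs 2 times and the second match is on the opposite strand.
Hspa5: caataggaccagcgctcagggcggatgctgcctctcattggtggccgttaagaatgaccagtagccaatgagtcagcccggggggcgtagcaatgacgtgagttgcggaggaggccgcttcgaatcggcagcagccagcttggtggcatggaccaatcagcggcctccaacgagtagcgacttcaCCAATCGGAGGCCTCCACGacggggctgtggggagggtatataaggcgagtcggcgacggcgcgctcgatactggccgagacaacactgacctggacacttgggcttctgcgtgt
Hsp90b1: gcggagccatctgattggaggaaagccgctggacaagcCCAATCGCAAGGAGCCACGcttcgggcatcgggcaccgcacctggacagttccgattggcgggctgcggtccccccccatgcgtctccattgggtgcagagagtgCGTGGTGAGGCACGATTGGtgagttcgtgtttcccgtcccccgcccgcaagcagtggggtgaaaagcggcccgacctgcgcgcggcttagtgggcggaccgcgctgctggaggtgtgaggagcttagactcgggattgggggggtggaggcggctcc
The other 2 chaperone genes called lower, Pdia3 and Dnajb9, had no match to these exact letters in their windows.

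**Figure D2:**
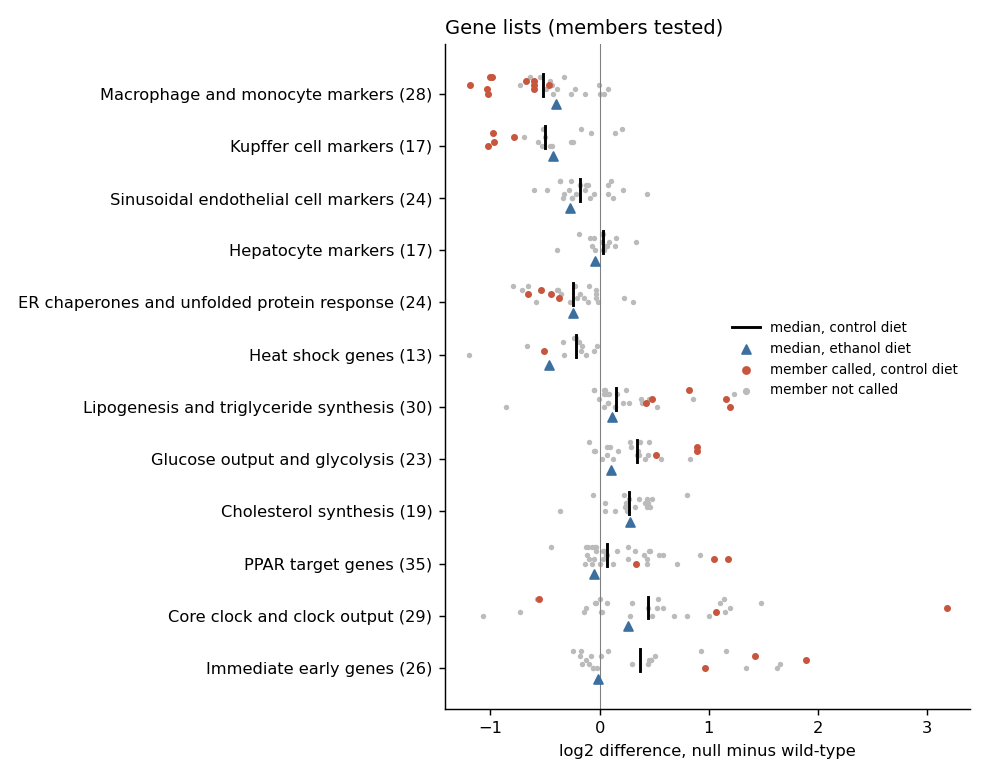
Log2 difference, null minus wild-type, of each tested gene in 12 gene lists (points, red where called and grey where not, spread vertically for legibility) on control diet, with the list median on control diet (black bar) and on ethanol diet (blue triangle) and the number of genes tested in brackets. Macrophage, Kupffer cell and chaperone lists lie to the left of 0 with medians of -0.52, -0.50 and -0.24, and lipogenesis, sugar, cholesterol, clock and immediate early lists to the right with medians of 0.15 to 0.45.

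Immediate early genes, which cells switch on within minutes of a stimulus, were partly higher. Of 26 tested, 3 rose and none fell (11.5% against 3.21%), with a list median of 0.37. Dusp1, a phosphatase that turns off MAP kinases, read 9.0, 9.15 and 9.22 in wild-type and 11, 10.64 and 11.41 in null arrays (3.72-fold, limma adjusted p = 0.000541). Klf10, a TGF-β-inducible factor, rose 2.69-fold (adjusted p = 0.004), and Zfp36, which destabilises cytokine mRNAs, 1.95-fold (adjusted p = 0.0425), although wild-type control 2 at 10.74 lay inside the null range for Zfp36. Gadd45b, Jun and Egr1, which belong to the same early response, differed by 1.62, 1.34 and 1.16 and did not pass (limma adjusted p = 0.0529, 0.0559 and 0.0589). The mean log2 level of the list was 7.40 to 7.55 on the wild-type control arrays and 7.67, 8.00 and 8.18 on the null control arrays, so null control 1 was the lowest of its group. Without it 7 members were called higher, and without wild-type control 2 also 7.

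The clock list was led by Rgs16 and Bhlhe40. Of 29 clock and clock-output genes, these 2 rose (Bhlhe40, a repressor of the clock loop, 2.09-fold, limma adjusted p = 0.0118), and Clock, the activator itself, fell by 0.56 ± 0.13 (adjusted p = 0.0312). Its partner Arntl differed by -1.06 and Npas2 by -0.73, and Per3, Usp2 and Ciart, known to peak at other hours, by 1.15, 1.20 and 1.48, all without passing (limma adjusted p = 0.13, 0.0688, 0.0841, 0.0518 and 0.174). The list median was 0.45, and 6.9% of its members were called higher and 3.45% lower, against 3.21% and 1.89% of all genes. The count of higher members was 6 without null control 3 and 1 without null control 2. The labels give the light cycle but no hour of collection, so the part of collection time in these differences was not tested.

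Macrophage transcripts were lower in the null livers. Of 28 macrophage and monocyte markers tested, 10 fell and none rose (35.7% against 1.89% of all genes), 25 of 28 differences were negative and the median was -0.52. Adgre1, which encodes the F4/80 antigen, read 9.04, 8.74 and 8.43 in wild-type and 7.95, 7.51 and 7.69 in null arrays (-1.02 ± 0.21, limma adjusted p = 0.0167). Mpeg1, a pore-forming protein of phagosomes, fell (difference of -1.18 ± 0.25), and so did Cybb, the NADPH oxidase subunit (-1.03 ± 0.22), Ctss, the macrophage cathepsin S (-1.003 ± 0.17), and the scavenger receptor Msr1 (-0.98 ± 0.21). Each null control array was below each wild-type control array for these 5 genes. The other 5 called lower were Ctsc, Laptm5, Lyz2, Tyrobp and C1qa, at -0.67 to -0.47. Other markers of the list, chosen after their values were seen, lay low on the arrays with overlapping groups: Cx3cr1 at 6.63 and 6.67, Itgax at 5.71 and 5.70 and Trem2 at 6.42 and 6.50 (wild-type and null means).

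Kupffer cell markers, those of the resident population, shared the direction. Of 17 tested, 4 fell and none rose (23.5% against 1.89%), 15 of 17 differences were negative and the median was -0.50. Cd5l, a secreted scavenger protein, read 10.04, 9.75 and 9.41 against 8.98, 8.55 and 8.74 (-0.97 ± 0.16, limma adjusted p = 0.00546). Vsig4, a complement receptor, fell by 0.97 ± 0.24, Adgre4 by 1.02 ± 0.22 and Marco, a scavenger receptor, by 0.79 ± 0.16. The defining marker Clec4f went from a mean of 9.33 to 8.88 and Timd4 from 7.79 to 7.26, neither passing, so both remained well above the testing level in null livers. In bulk tissue, fewer cells of a type and less RNA per cell cannot be told apart. Macrophage markers called lower numbered 2 without wild-type control 1 or null control 2 and 5 without null control 3, and Kupffer markers 2 without wild-type control 1 or null control 3 and 1 without null control 2.

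Markers of other liver cell types held few calls, and whether their shift differs from that of macrophages was not tested. None of 24 sinusoidal endothelial markers was called (18 negative, median -0.18), none of 15 lymphocyte markers (12 negative, median -0.14) and none of 4 neutrophil markers, 10 others of which lay under the testing level. Of 32 stellate cell and matrix genes, Sparc, a matrix-binding glycoprotein, rose (0.53 ± 0.11, limma adjusted p = 0.0163) and the median was 0.17. None of the 17 hepatocyte markers was called and their median was 0.04. Interferon-stimulated genes had a median of -0.25 with 20 of 29 negative and 1 called, the GTPase Irgm2, which fell by 1.27 ± 0.33 (limma adjusted p = 0.0477), with wild-type arrays at 9.58, 10.96 and 9.31, and whose call ended without any 1 of 9 arrays (all but wild-type control 2 and 3 and wild-type ethanol 1). Of 27 inflammatory cytokine and NF-kB genes 20 were negative and none was called.

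**Figure D3:**
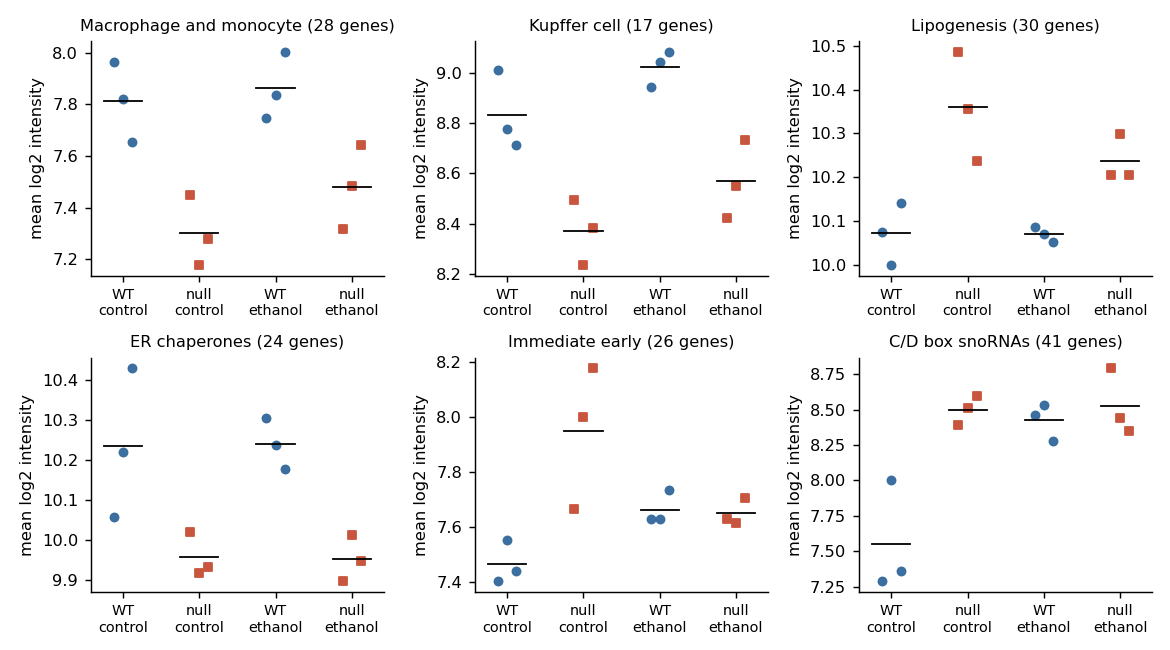
Mean log2 intensity over the tested genes of 6 lists on each of the 12 arrays (blue circles wild-type, red squares null), with a bar at each group's mean; each vertical axis has its own range and does not start at 0. Macrophage and Kupffer lists were lower in each null array than in each wild-type array of the same diet, while C/D box snoRNAs were low in the wild-type control arrays alone (7.29 to 8.00 against 8.28 to 8.79 in the other 9).

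Of the 450 higher genes, 8.67% were small nucleolar RNAs, which guide chemical modification of ribosomal RNA and are mostly processed from introns of host genes. This set was gathered by name after the values had been seen. Of 41 C/D box snoRNA genes tested 25 were higher and none lower, and of 25 H/ACA box genes 14 were higher and none lower, against 3.21% of all genes called higher, with median differences of 0.93 and 0.98. Snord53 read 6.78, 7.26 and 6.90 in wild-type and 11.95, 12.00 and 11.90 in null arrays, a 31.4-fold rise (limma adjusted p = 2.33e-09). Averaged over the C/D box set, wild-type control arrays stood at 7.29, 8.00 and 7.36, null control arrays at 8.39 to 8.596, 8.28 to 8.53 in wild-type ethanol and 8.35 to 8.79 in null ethanol arrays. The low group was thus wild-type control, and on ethanol diet the genotypes overlapped. Together 39 snoRNA genes were called higher, and that count was 19 without wild-type control 1 or 3, 15 without null control 2 and 23 without null control 3. Cytosolic ribosomal proteins, also gathered by name afterwards, had 6 of 55 called higher (10.9%) with a median of 0.16, and mitochondrial ribosomal proteins 7 of 66 (10.6%) with a median of 0.08, beside the same 3.21% over all genes.

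Enzymes of oxidative metabolism and of amino acids held few called genes per list. In oxidative phosphorylation 3 of 33 genes rose (Ndufb8, Cycs and Uqcrc1, by 0.33 to 0.37), which is 9.09% against 3.21% of all genes. Of 30 genes of nicotinamide, NAD and one-carbon metabolism, Nnmt and the homocysteine-forming enzyme Ahcy fell (Ahcy by 0.49 ± 0.10). Nadsyn1 and Nmnat1, enzymes of NAD synthesis, rose by 0.61 ± 0.13 and 0.43 ± 0.11. That is 6.67% of this list in each direction, against 3.21% of all genes called higher and 1.89% lower. Among 13 genes of ethanol and acetaldehyde metabolism Adh4 fell by 0.53 ± 0.11 (limma adjusted p = 0.018), which is 7.69% called lower against 1.89%. Of 29 iron and heme genes Hfe, the hemochromatosis protein, fell (-0.66 ± 0.11, adjusted p = 0.00532), which is 3.45% against 1.89%. Got1, the cytosolic aspartate aminotransferase, fell by 0.66 ± 0.15 and Hal, which degrades histidine, by 0.45 ± 0.09, while Ass1 rose by 0.55 ± 0.14 (limma adjusted p = 0.0453). Of 18 urea cycle and periportal genes 1 was called higher and 2 lower (5.56% and 11.1%, against 3.21% and 1.89% of all genes). Pericentral hepatocyte genes (26), bile acid genes (1 of 22 called, Fgfr4, 4.5% higher against 3.21%), the AhR targets (5) and the H2 histocompatibility genes (21) showed 0 or 1 call each.

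The ethanol-fed arrays give the same genotype contrast in 6 other samples, sharing with the control-diet contrast no array but the fit's variance estimate. There 251 genes were called (1.79%), 64 higher (0.456%) and 187 lower (1.33%), and the count was 111 without wild-type ethanol 2, 108 without wild-type ethanol 3, 132 without null ethanol 1 and 155 without null ethanol 2. Of the genes called on control diet, 45 of the 450 higher and 81 of the 265 lower were also called in the same direction on ethanol diet, and 0 in the opposite one, so 126 genes were shared, 17.6% of the control-diet list and 50.2% of the ethanol-diet list. Of the 265 lower genes, 91.3% were negative on ethanol diet, against 54.5% of all genes tested, and their median was -0.59 on control and -0.41 on ethanol diet. Of the 450 higher genes, 70.7% were positive, against 45.5% of all genes, and their median was 0.53 on control and 0.11 on ethanol diet. Both sets were chosen by passing on control diet, which by itself favours larger differences there. These medians thus do not measure a change of the genotype difference with diet.

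**Figure D4:**
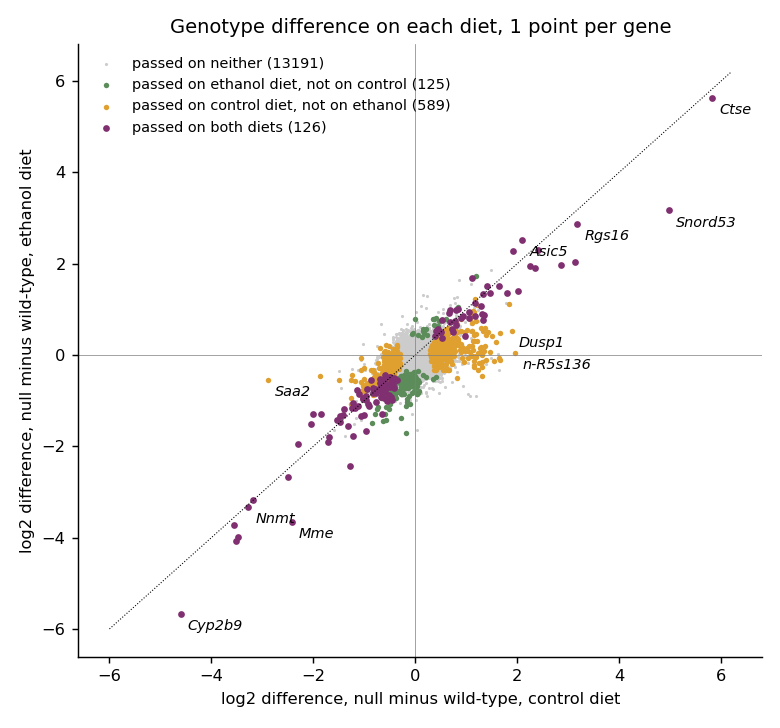
Log2 difference, null minus wild-type, on control diet (horizontal) and on ethanol diet (vertical), 1 point per gene for 14031 genes, coloured by the diets on which the gene passed an adjusted p of 0.05; the dotted line marks equal differences. Ctse, Rgs16, Nnmt, Mme and Cyp2b9 lie near the line or beyond it, whereas Saa2, Dusp1 and n-R5s136 lie near 0 on the vertical axis.

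Most of the 30 genes of largest difference, from which clone, predicted, snoRNA and receptor-family names were left out, were called on both diets. This did not hold for large differences in general. Of the 136 called genes that differed by at least 1 on control diet, 58 were called on both diets. These were 25 of the 85 higher and 33 of the 51 lower genes. Ctse differed by 5.81 on control and 5.62 on ethanol diet, Nnmt by -3.27 and -3.32, Mug2 by -3.47 and -3.98, Prelid2 by 2.40 and 2.30, and Rgs16 by 3.18 and 2.86. The values lay further apart for Mme (-2.43 and -3.66), Cyp2b9 (-4.60 and -5.67) and Igsf23 (2.85 and 1.96). Of the 30 genes of largest difference, the 6 not called on ethanol diet were n-R5s136 (0.05 ± 0.28), Dusp1 (0.53 ± 0.23), Cyp2a4 (1.12 ± 0.32), Saa2 (-0.55 ± 0.59), Chrm3 (-0.46 ± 0.24) and Slc41a2 (-0.55 ± 0.33). The difference between diets, tested as an interaction, was past the threshold for 2 genes of 14031, both snoRNAs (Snord53 and Snord111), and for none of these 6 (limma adjusted p = 0.17 to 0.46). The list medians on ethanol diet were -0.40 for macrophage markers, -0.42 for Kupffer markers, -0.24 for ER chaperones, 0.11 for lipogenesis, 0.11 for sugar genes, 0.26 for clock genes and -0.01 for immediate early genes. On that diet 1 macrophage marker (Tyrobp), 3 Kupffer markers and 3 chaperones were called lower, none of the lipogenic, sugar or immediate early genes was called higher, and 1 lipogenic gene (Elovl3, a fatty acid elongase, -1.49 ± 0.29) and 1 sugar gene (Slc2a1, a glucose transporter, -0.47 ± 0.11) were called lower.

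A few of the genes of largest difference had many called neighbours. Counting the nearest 20 tested genes to either side, the median over all genes was 2 called on control diet and 0 called in the same direction on both diets, and 0.614% of genes had 5 or more of the latter. For the 30 genes of largest difference the median was 3 called on control diet, and 17 of the 30 had no neighbour called on both diets. Around Zfp982 on chromosome 4 there were 5 neighbours called on both diets, with 9 of 40 called on control diet: Tmem51 and Mtor rose by 1.29 and 0.84, Miip, an inhibitor of cell migration, fell by 0.95, and the adjacent transcript 4933438K21Rik rose by 3.13 ± 0.28. Around Pik3c2g on chromosome 6 there were also 5, including Slc15a5, which lies 2 tested genes away and fell, Emp1, an epithelial membrane protein (1.33 ± 0.13), Strap (0.45 ± 0.10) and the growth inhibitor Rerg, a RAS-related protein, at -0.49 ± 0.13. Around Slc6a16 on chromosome 7 there were 5 as well, and 12 of its 40 neighbours were called on control diet, among them Tead2, a transcription factor of the Hippo pathway (1.06 ± 0.15), and Fgf21.

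Other windows held fewer genes called on both diets. Next to Ctse on chromosome 1, Pm20d1, which forms N-acyl amino acids, rose by 0.78 ± 0.09 (limma adjusted p = 0.00045) and Cdk18 by 0.60 ± 0.12, while the other 2 called genes of that window lay 14 and 15 genes away. Around Saa2 on chromosome 7, 5 of 40 neighbours were called: Gm2788, Uevld, Saa4 and Hps5 fell (differences of -2.49 ± 0.28, -1.42 ± 0.13, -1.24 ± 0.25 and -0.52 ± 0.12) and Abcc6 rose by 0.62 ± 0.14. Around Mug2 on chromosome 6, 6 of 40 were called, and the adjacent Gm10319 fell (-1.33 ± 0.19). Around Nnmt (chromosome 9) 1 of 40 neighbours was called, and around Mid1 0 of 22. Around Ppard on chromosome 17, 1 of 40 neighbours was called on control diet and none on both diets. Whether the called neighbours reflect linked DNA of another strain or regulation of a region cannot be told apart with these arrays.

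**Figure D5:**
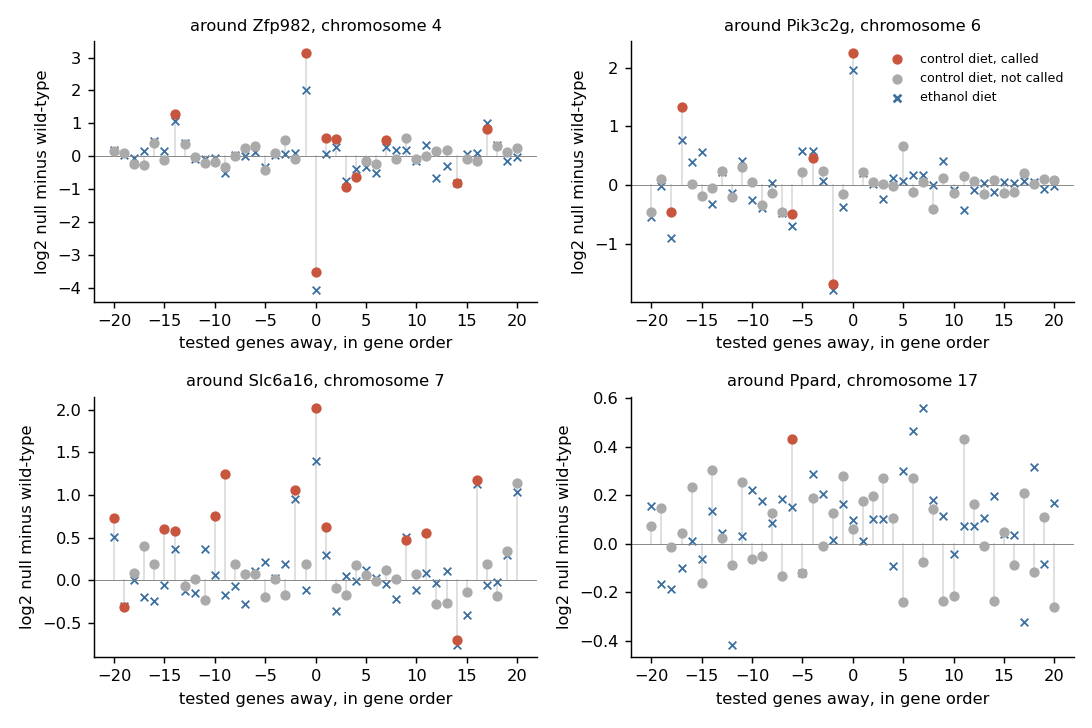
Log2 difference, null minus wild-type, of the tested genes within 20 positions of Zfp982, Pik3c2g, Slc6a16 and Ppard in gene order (0 is the named gene), on control diet (circles, red where called) and on ethanol diet (blue crosses); vertical ranges differ between panels. Called genes lie among neighbours near 0 in the first 3 panels, and around Ppard 1 gene is called, with all circles between -0.26 and 0.43.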

How the data were processed

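Male liver RNA was measured in 12 samples (4 groups of 3, from the labels) on Affymetrix Mouse Gene 2.0 ST arrays; total RNA was extracted with an RNeasy kit and 100 ng labelled with Ambion and Affymetrix whole-transcript kits, per the labels' protocols. The deposited intensity values, 1 per probe set and array, are on the RMA scale, which the submitters' processing notes name; no label states the software settings. They ran from 1.816 to 20156, so log2 was taken here.

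Of 41345 probe sets, 23521 named exactly 1 gene, and for each of 22180 genes the brightest probe set over the 12 arrays was used. RefSeq (GRCm38.p6) gave names, gene order and promoter windows. Genes above the 40th percentile of their array (5.61 to 5.72) on at least 3 arrays were tested (14031). limma 3.58.1 in R 4.3.3 (lmFit, contrasts.fit, eBayes) fitted 4 group means to all 12 arrays, without a replicate block, and the steps were tested on simulated data.

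The text names the 15 called genes with the greatest rise and the 15 with the greatest fall, groups not overlapping (clone, predicted, snoRNA and receptor-family names left out), up to 4 members of smallest p per list, called neighbours and Ppard; 52 gene lists were described by counts and medians, with no set test. Some members called in a list are named beyond this rule, chosen after their values were seen. Comparison, lists and rules were chosen with earlier results of these data known. The alternatives tried are given at the end.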

Additional observations from a re-analysis of the deposited data

Results flagged for a closer look

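The genotype difference of 2 snoRNAs depended on diet by the interaction term. For Snord53 the difference on ethanol diet minus that on control diet was -1.80, from 4.97 on control to 3.17 on ethanol diet, and for Snord111 it was -1.55, from 1.23 to -0.32 (limma adjusted p = 0.0484 for each). Probe sets outside the gene-level comparison also differed between genotypes on control diet: 113 of 1031 tested probe sets that list several genes were called, 84 higher and 29 lower, and 75 of 5868 that list no gene were called, 57 higher and 18 lower.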

How the results depend on the processing

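The 112 called genes covered by the naming rule kept their direction in each of the 25 other settings in which they were tested (24 for Mcm6, Rrm2 and Snord87); 35 stayed called in each and 77 lost the call in at least 1. Called genes named beyond the rule, such as Mpeg1 and Snord53, were not followed through the settings. Ppard, not called, was -0.0177 after quantile normalisation and ranged from -0.0066 (without wild-type control 1) to 0.1746 with 1 array left out. With only the 6 control-diet arrays, 226 genes were called (135 higher, 91 lower), with 4 macrophage, 2 Kupffer, 3 lipogenic, 1 sugar, 1 chaperone, 1 clock and 18 snoRNA genes. Without the filter 393 were called (243 and 150), 3 of them lipogenic, and the interaction called 1 gene. With array weights 1631 were called (953 and 678), 829 on ethanol diet, 38 for the interaction, 9 Kupffer, 5 sugar, 8 chaperone and 9 immediate early. A required difference of 1 left 136 (85 and 51), 71 on ethanol diet, 4 macrophage, 1 Kupffer, 2 lipogenic, 0 sugar and 0 chaperone genes. The interaction called 0 genes under the stricter filter, with 16 added before the log or without snoRNAs, where 2110 had an unadjusted p under 0.05 in the fit as reported. Immediate early genes called were 5 with 16 added and 5 with the gene-level median of each array subtracted, a setting chosen after seeing the data, in which 545 genes were higher and 214 lower. Subtracting the median of all probe sets gave 512 and 215. The causes were not tested.

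Leaving out 1 array at a time gave 193 to 1306 genes called (116 to 678 higher, 77 to 628 lower), 108 to 320 on ethanol diet and 0 to 84 for the interaction. The lists ranged over 2 to 12 macrophage, 1 to 5 Kupffer, 1 to 6 lipogenic, 0 to 5 sugar, 0 to 7 chaperone, 2 to 7 immediate early, 1 to 6 clock, 0 to 3 PPAR target and 15 to 47 snoRNA genes. Same-numbered arrays of the genotypes did not deviate together (correlations of -0.02, -0.06 and 0.19), so the numbers were not taken as pairs, and the replicate block gave 613 genes (394 and 219). Genes near the testing level, such as Cyp2b9 in null arrays, have folds limited by background.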
